A study of Homo sapiens with 4 samples.

Results

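The 6 mRNAs described here encode NRP1 and NRP2, the neuropilins, the plexins PLXNA1, PLXNB2 and PLXND1, and the semaphorin SEMA6B. Their abundance was read in RNA recovered by immunoprecipitation of EXOSC10 or with IgG as the control. They are 6 of the 12838 gene symbols in the table and 6 of the 26 neuropilin, plexin and semaphorin symbols that had an entry in it. The members were chosen by symbol, and they were selected on measured values of these same libraries: NRP2 and SEMA6B were known to lie at opposite ends of the doxycycline comparison. Their values are therefore given as a description, with no test and no p-value.

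Semaphorins are secreted or membrane-bound guidance cues, and plexins are their transmembrane receptors, which act on small GTPases and the cytoskeleton. Neuropilins are co-receptors without a catalytic domain of their own: they present class 3 semaphorins to A-type plexins and also bind VEGF family growth factors. In carcinoma cells both neuropilins are studied for their part in migration, invasion and growth factor signalling. EXOSC10 is the nuclear exoribonuclease of the RNA exosome, which trims and degrades RNA from the 3' end.

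All 4 groups were LM2-4175 cells, which descend from the breast carcinoma line MDA-MB-231 and were selected for metastasis to the lung. Every group carried CerS4, a ceramide synthase, on a construct induced by doxycycline, and was kept in puromycin and hygromycin. Cells were untreated or received 5 µg/mL doxycycline for 48 h, and RNA was immunoprecipitated with an antibody to EXOSC10 or with IgG. There was 1 library in each of the 4 groups (untreated IgG, untreated EXOSC10, doxycycline IgG and doxycycline EXOSC10), so no difference has a replicate check. The study asked how the PD-L1 and Caprin-1 complex bears on mRNA degradation when lipid metabolism is altered, and its main comparison was EXOSC10-bound RNA with against without doxycycline. None of the 4 libraries is total input RNA, so a change in how much of an mRNA the cells held and a change in how much was recovered cannot be told apart. In bulk RNA, fewer cells with an mRNA and less of it per cell cannot be told apart either.

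The libraries held between 3723369 and 7575306 estimated reads, of which 56.3% to 83.8% lay on ribosomal RNA genes, leaving 1023410 to 2408238 reads for other genes. The labels give polyA RNA as the molecule, which is at odds with these shares, and CPM on the library total depend on them. CERS4 and CD274, the gene of PD-L1, had no entry analysed here, and CerS4 induction was therefore not checked. All 8 markers fixed for the basal, mesenchymal MDA-MB-231 type had an entry. VIM had the most reads, 2079 to 4396, and S100A4 the fewest, 0 to 22.0. Their sum, as CPM of non-ribosomal reads, was 4827 and 4173 with IgG and 4461 and 3822 with EXOSC10, untreated and with doxycycline. ESR1 and EPCAM, of the luminal type, had no entry analysed here. Other luminal markers were present, KRT19 at 185 to 1163 reads, and the summed luminal list, as CPM of non-ribosomal reads, was at 334 and 291 in the IgG libraries and 672 and 813 in the EXOSC10 libraries, untreated and with doxycycline. Of 6 endothelial markers 1 had an entry, PECAM1, with at most 31 reads. Of 6 neural markers 4 had an entry, TUBB3 with the most reads, and their sum on the same scale was 99.9 and 68.2 with IgG and 142 and 147 with EXOSC10, untreated and with doxycycline. The part of these lists in the results below was not tested.

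Levels are CPM, the reads of a gene relative to its library's total, divided by a scaling factor (trimmed mean of M values, TMM), and a ratio is log2 of scaled CPM plus 0.2 in 1 library over another. Brackets hold 95% intervals, exact Poisson for a level and exact Clopper-Pearson for a share or a ratio of 1 gene between a pair of libraries. For a change of enrichment and a change of the NRP2 to NRP1 ratio they are normal intervals from summed reciprocal reads. All of them cover counting error only. To be counted as higher or lower, a gene needed a difference of 2-fold or more and at least 100 reads summed over the libraries compared (for the change of enrichment, 100 in each antibody's pair).

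The pair of neuropilin mRNAs took different courses between antibodies. With IgG, NRP2 made up 50.5% of the reads of both neuropilins untreated (46.3 to 54.8) and 53.0% with doxycycline (49.5 to 56.5). With EXOSC10 it made up 19.6% untreated (17.1 to 22.2) and 6.22% with doxycycline (5.28 to 7.27). This share compares a pair of genes inside each library, so no scaling factor enters it. The IgG shares overlap each other in their intervals, while both EXOSC10 shares lie below them and apart from one another. This order rests on summing the entries of each gene: on the entry with the most reads of each, the NRP2 share was 25.9% untreated and 54.9% with doxycycline with IgG, and 22.0% and 2.98% with EXOSC10. The untreated libraries then lay close together and the IgG libraries apart, while the doxycycline EXOSC10 library was lowest either way. From untreated to doxycycline, the ratio of NRP2 to NRP1 reads was 3.67-fold lower with EXOSC10 and 1.10-fold higher with IgG, on the log2 scale -1.88 (-2.21 to -1.54) and 0.14 (-0.17 to 0.45). Against IgG it was 4.20-fold lower in the untreated EXOSC10 library and 17.0-fold lower in the doxycycline EXOSC10 library.

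**Figure D1:**
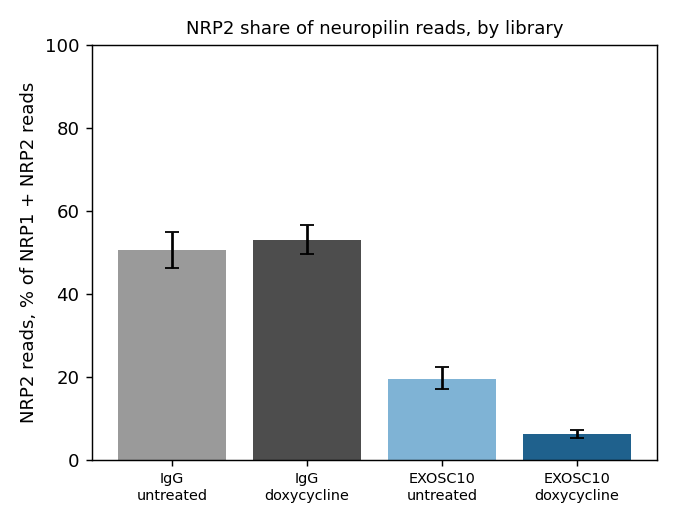
Bars show NRP2 reads as a percentage of NRP1 plus NRP2 reads in each of the 4 libraries, and error bars are exact Clopper-Pearson 95% intervals. The IgG libraries sit at 50.5% and 53.0%, the EXOSC10 libraries at 19.6% and 6.22%.

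NRP2 (chromosome 2, 205682501 to 205798131, GRCh38.p14) binds class 3 semaphorins such as SEMA3F and also VEGF-C. With IgG it had 277 reads untreated and 427 with doxycycline, and with EXOSC10 it had 187 and 147. In scaled CPM these are 106 (93.9 to 119) and 125 (113 to 137) with IgG and 35.6 (30.7 to 41.1) and 10.5 (8.85 to 12.3) with EXOSC10. Both IgG libraries are high, the untreated EXOSC10 library is intermediate and the doxycycline EXOSC10 library is lowest, with no overlap of the intervals between the antibodies. Within EXOSC10, doxycycline over untreated was -1.75 (-2.09 to -1.45), 3.35-fold lower. Within IgG it was 0.24 (0.02 to 0.46).

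EXOSC10 over IgG was -1.57 (-1.85 to -1.30) for NRP2 in untreated cells and -3.55 (-3.86 to -3.30) with doxycycline, 2.97-fold and 11.7-fold lower. The change of enrichment, which is the second of these minus the first and shares all its libraries with them, was -1.98 (-2.36 to -1.60). In order among all genes tested, 25 of 6584 lay below NRP2 in the EXOSC10 doxycycline comparison, 770 of 3619 in EXOSC10 over IgG untreated, 26 of 6279 in EXOSC10 over IgG with doxycycline and 45 of 2946 in the change of enrichment. NRP2 was near the end of the order in each comparison that held the doxycycline EXOSC10 library and well inside it in untreated cells. It was selected with its place in the doxycycline comparison known. The comparisons that put it near the end share the doxycycline EXOSC10 library, so these places are not independent of one another. Scaling to total counts raised the EXOSC10 doxycycline ratio to -0.72 and lowered the IgG ratio to -0.40, and the EXOSC10 over IgG ratios became -0.75 and -1.07.

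NRP1 (chromosome 10, 33177493 to 33334667) is the co-receptor for SEMA3A and VEGF-A. It had 271, 768, 379 and 2216 reads in the untreated IgG, untreated EXOSC10, doxycycline IgG and doxycycline EXOSC10 libraries. The scaled CPM were 104 (91.7 to 117), 146 (136 to 157), 111 (100.1 to 123) and 158 (151 to 165). The levels fall into a lower IgG pair and a higher EXOSC10 pair, and inside each pair the intervals overlap. Doxycycline over untreated was 0.11 (-0.01 to 0.23) with EXOSC10 and 0.10 (-0.13 to 0.33) with IgG, both short of 2-fold and neither excluding equality. EXOSC10 over IgG was 0.49 (0.29 to 0.70) untreated and 0.51 (0.35 to 0.67) with doxycycline, with a change of enrichment of 0.01 (-0.24 to 0.27). With total counts, the EXOSC10 doxycycline ratio of NRP1 was 1.15 and its EXOSC10 over IgG ratios were 1.32 and 3.0. That scaling moves the ratios of a comparison by a common amount, apart from the effect of the 0.2 added to each level.

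**Figure D2:**
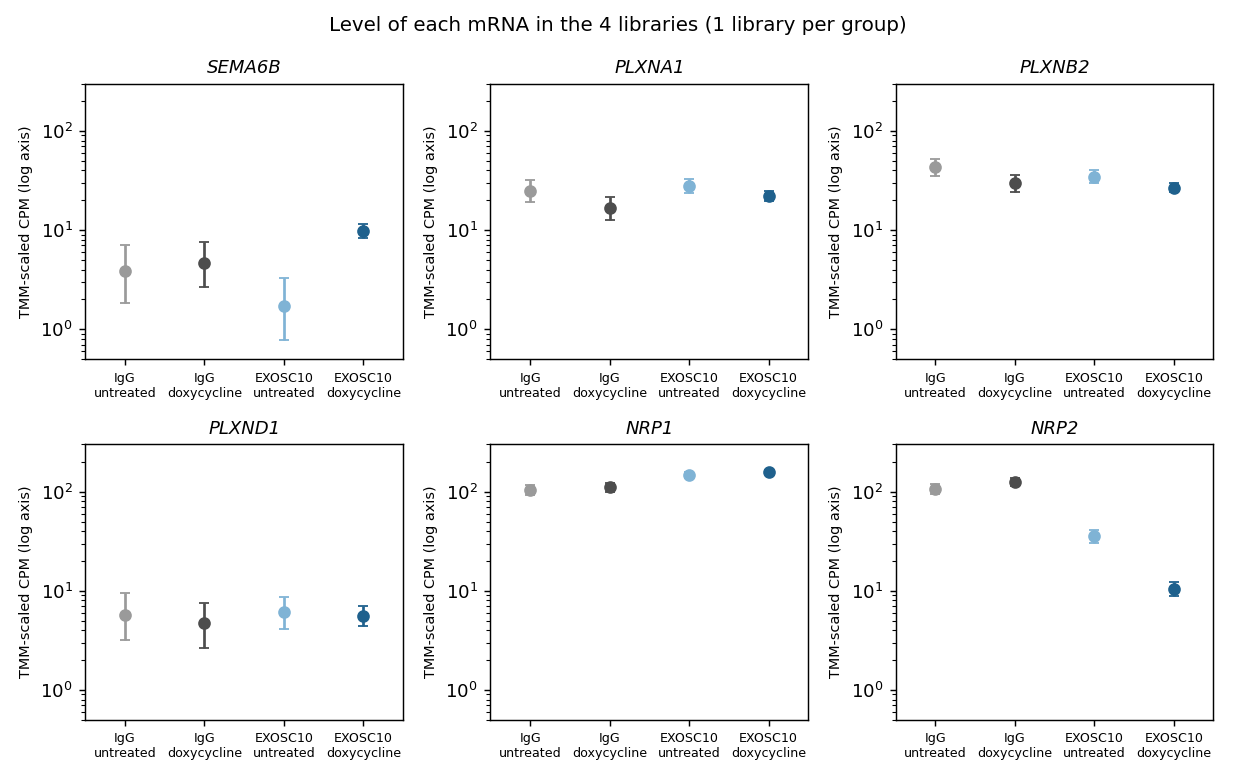
Points give the TMM-scaled CPM of each mRNA in the 4 libraries on a log axis, and bars are exact Poisson 95% intervals. NRP2 is at 106 and 125 with IgG and at 35.6 and 10.5 with EXOSC10, SEMA6B is highest in the doxycycline EXOSC10 library at 9.83, and the 3 plexins stay within narrow ranges.

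The table holds several unnamed entries for some symbols, among which reads are divided, and the entries of the neuropilins behaved differently. The 5 entries of NRP2 fell into 2 sets, inside which reads kept the same proportion in all libraries to within 1%, so the entries of a set carry no separate information. The set of 3 entries had 134, 128, 290 and 74.2 reads in the untreated IgG, untreated EXOSC10, doxycycline IgG and doxycycline EXOSC10 libraries. The set of 2 entries had 143, 58.9, 137 and 72.8 reads. Doxycycline over untreated with EXOSC10 was -2.16 for the first set and -1.08 for the second. With TMM scaling both thus lay at least 2-fold lower, as the gene did, the second just past it. Upper-quartile, non-ribosomal and total-count scaling raise ratios of this comparison by about 0.10, 0.18 and 1.04. Each of these leaves the second set short of 2-fold. With IgG the entry with the most reads, which is of the first set, was at 0.73, and the next, of the second set, at -0.45. The opposite signs of the gene with EXOSC10 and IgG were thus those of the first set. The second set was below 0 with both antibodies.

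For NRP1, the sum hid entries that moved in opposite directions. The entry with the most reads had 167, 198, 104 and 1051 reads in the library order used above, and the next 35.5, 123, 23.2 and 762. In the doxycycline EXOSC10 library they held 47.4% and 34.4% of NRP1 reads. The third entry had 15.3, 239, 124 and 261 reads and the next 4.14, 75.2, 102 and 46.6. In log2 terms, doxycycline over untreated with EXOSC10 was 0.99 and 1.20 for the first 2 entries and -1.28 and -2.05 for the other pair. With IgG the signs were the other way round, at -1.07, -0.98, 2.60 and 4.08. A sixth entry had 88.5 reads in the untreated EXOSC10 library and at most 1.18 in any other. The entries carry no transcript names, and a division of shared reads is an estimate that these intervals do not cover.

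**Figure D3:**
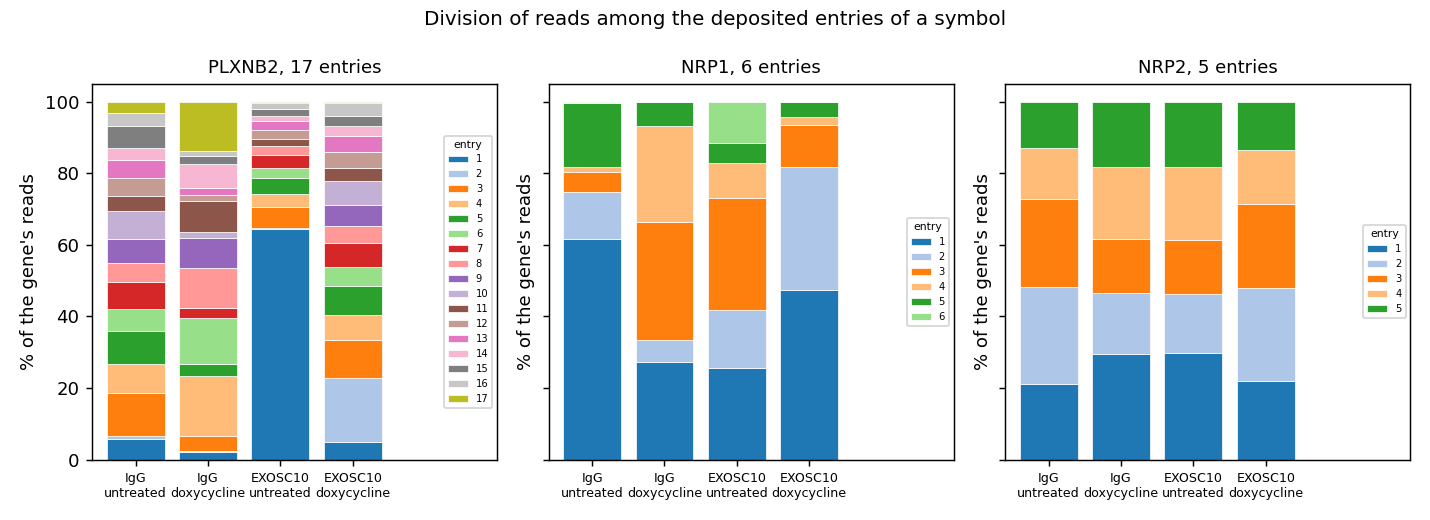
Stacked bars show the percentage of a gene's reads on each deposited entry in the 4 libraries, with entries numbered by their reads over all libraries. For NRP1 the first 2 entries hold 47.4% and 34.4% in the doxycycline EXOSC10 library, and for PLXNB2 1 entry holds 64.5% in the untreated EXOSC10 library.

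Summed over entries and with TMM scaling, the 3 plexin mRNAs lay within 2-fold in all 5 comparisons, whether or not they reached the minimum. For PLXNB2 this sum covers entries that went opposite ways, given below. PLXNA1 (chromosome 3, 126983115 to 127037389), an A-type plexin that pairs with neuropilins, had 65, 147, 57 and 311 reads in the untreated IgG, untreated EXOSC10, doxycycline IgG and doxycycline EXOSC10 libraries. Its levels were 24.9 (19.2 to 31.7), 28.0 (23.6 to 32.9), 16.7 (12.6 to 21.6) and 22.2 (19.8 to 24.8) scaled CPM. The doxycycline IgG library was lowest and the untreated EXOSC10 library highest, and neighbours in that order overlap. Doxycycline over untreated was -0.33 (-0.62 to -0.04) with EXOSC10 and -0.57 (-1.11 to -0.04) with IgG, and EXOSC10 over IgG was 0.17 (-0.26 to 0.61) and 0.40 (-0.00 to 0.84).

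PLXNB2 (chromosome 22, 50274979 to 50307646) is a B-type plexin that binds class 4 semaphorins. It had 112, 182, 102 and 374 reads in the same order on 17 entries, in fractions of reads. The scaled CPM were 43.0 (35.4 to 51.7), 34.6 (29.8 to 40.0), 29.9 (24.4 to 36.3) and 26.7 (24.0 to 29.5). With doxycycline the ratio was -0.37 (-0.63 to -0.11) for EXOSC10 and -0.52 (-0.92 to -0.12) for IgG. EXOSC10 over IgG was -0.31 (-0.66 to 0.04) untreated and -0.16 (-0.49 to 0.16) with doxycycline. The untreated IgG level is the highest of the 4 and the doxycycline EXOSC10 level the lowest, and their intervals do not overlap.

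The entry of PLXNB2 with the most reads carried 6.53 and 2.14 reads with IgG and 117 and 19.0 with EXOSC10, untreated and with doxycycline, and held most of the gene in the untreated EXOSC10 library alone. On that entry doxycycline over untreated was -3.85 with EXOSC10 and EXOSC10 over IgG was 3.06 untreated. It was 0.91 with doxycycline, the change of enrichment was -2.15, and the IgG ratio of -1.71 rests on few reads. The next entry had 66.4 reads in the doxycycline EXOSC10 library and under 1 read in each of the others. Sets of 6 and of 5 entries in fixed proportion were both at 0.50 for doxycycline over untreated with EXOSC10. The PLXNB2 sum therefore averages entries that differ by far more than the counting interval of the gene.

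PLXND1 (chromosome 3, 129555214 to 129606676), a receptor for SEMA3E known from vascular patterning, was the sparsest plexin of the 3, with 15, 32, 16 and 79 reads. Its scaled CPM were 5.74 (3.21 to 9.47), 6.09 (4.17 to 8.60), 4.69 (2.68 to 7.61) and 5.63 (4.46 to 7.02), all overlapping. It reached 100 reads in the EXOSC10 doxycycline comparison alone, where the ratio was -0.11 (-0.72 to 0.53). At this depth a difference inside that interval was not detectable. With total counts the EXOSC10 doxycycline ratios of PLXNA1, PLXNB2 and PLXND1 turned positive, to 0.70, 0.66 and 0.91, so their direction rests on the scaling.

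SEMA6B (chromosome 19, 4542593 to 4559684), a transmembrane class 6 semaphorin that acts through A-type plexins, was the only ligand among the 6. Untreated cells gave 10 reads with IgG and 9 with EXOSC10, and doxycycline-treated cells gave 16 and 138, all on 1 entry with whole reads. The scaled CPM, in the same order, were 3.83 (1.84 to 7.04), 1.71 (0.78 to 3.25), 4.69 (2.68 to 7.61) and 9.83 (8.26 to 11.6). The doxycycline EXOSC10 library stands above the others, whose intervals overlap among themselves where they are neighbours in order. Doxycycline over untreated with EXOSC10 was 2.39 (1.55 to 3.68), 5.25-fold higher, with 36 of 6584 genes above it. SEMA6B reached the minimum there only through the doxycycline EXOSC10 library, where it was high. From 9 untreated reads, an unchanged or lower gene could not have reached it.

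With IgG the same ratio of SEMA6B was 0.28 (-0.94 to 1.59) on 26 reads in all, which does not reach the minimum. EXOSC10 over IgG was -1.07 (-2.64 to 0.29) untreated, also below the minimum, and 1.04 (0.32 to 1.92) with doxycycline. The last value lies just past 2-fold and falls short of it with a pseudocount of 1 CPM (0.93) or median-of-ratios factors (0.96). It too reached the minimum only through the doxycycline EXOSC10 library. The change of enrichment was 2.11 (0.61 to 3.61), without the reads required for a call. With total counts the EXOSC10 doxycycline ratio of SEMA6B was 3.44.

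**Figure D4:**
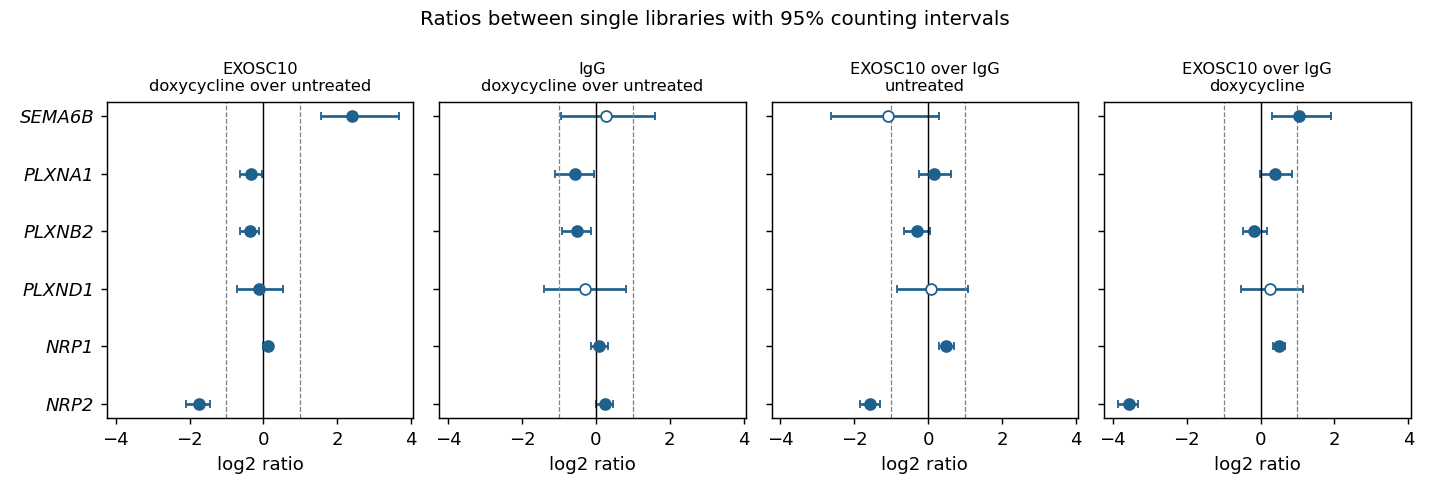
Points show log2 ratios between single libraries for the 6 mRNAs in 4 comparisons, with 95% Clopper-Pearson intervals, dashed lines at 2-fold and open points below 100 reads. NRP2 lies left of the dashed line in 3 of the 4 panels, SEMA6B is at 2.39 in the first, and the points of the plexins and NRP1 stay between the dashed lines.

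Counted together, 1 of the 6 mRNAs was at least 2-fold higher (SEMA6B) and 1 lower (NRP2) in EXOSC10 doxycycline over untreated, where 5.83% of 6584 genes tested were higher and 4.19% lower. In that comparison SEMA6B, with 9 untreated reads, could be counted only when higher. The median of the 6 was -0.22 and that of all genes tested -0.06. With IgG, doxycycline over untreated, 0 of 4 with enough reads reached 2-fold, against 2.78% higher and 3.8% lower of 3027. In EXOSC10 over IgG untreated, 0 of 4 were higher and 1 lower, against 4.95% and 36.9% of 3619. With doxycycline 1 of 5 was higher and 1 lower, against 13.3% and 27.0% of 6279. In the change of enrichment 0 of 4 were higher and 1 lower, against 4.75% and 10.9% of 2946. Since the members were picked with these values known, nothing is read from the counts.

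These background splits depend on the scaling. With total counts, 47.8% of genes were higher and 0.122% lower in the EXOSC10 doxycycline comparison, 0.396% and 26.5% in the IgG comparison, 31.3% and 14.5% in EXOSC10 over IgG untreated, 80.9% and 0.541% with doxycycline, and 77.2% and 0.373% in the change of enrichment. With the total of non-ribosomal reads the splits were 8.92% and 2.37%, 4.36% and 2.38%, 38.3% and 8.43%, and 51.9% and 10.5% for the first 4 of these. Upper-quartile factors gave 7.44% and 2.86% in the EXOSC10 doxycycline comparison and 20.1% and 23.2% in EXOSC10 over IgG with doxycycline. Median-of-ratios factors gave 4.77% and 6.42% in the former. NRP2 stayed below 0 under each of these scalings in the EXOSC10 doxycycline comparison and in both EXOSC10 over IgG comparisons, while its IgG ratio changed sign with total counts.

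The family beyond these 6 mRNAs was mostly sparse. Of 31 neuropilin, plexin and semaphorin genes listed, 26 had an entry; SEMA4A, SEMA4D, SEMA5B, SEMA6D and PLXNC1 had none analysed here. Among the 20 other genes, 10 had at least 100 reads in the EXOSC10 doxycycline comparison, of which 2 were at least 2-fold higher and 0 lower, beside the 5.83% and 4.19% given above. The first was SEMA3A, a secreted ligand of NRP1, with 4 reads in the untreated IgG, 21 in the untreated EXOSC10, 13 in the doxycycline IgG and 145 in the doxycycline EXOSC10 library, at 1.33 (0.70 to 2.11). PLXNB1, the SEMA4D receptor, had 3, 18, 19 and 100 reads and was at 1.01 (0.32 to 1.87). With IgG, where neither reached the minimum, doxycycline over untreated was 1.21 (-0.38 to 3.39) for SEMA3A and 2.10 (0.51 to 4.68) for PLXNB1. PLXNB1 lay just past 2-fold and was at 0.91 with median-of-ratios factors and 0.88 with a pseudocount of 1 CPM, which leaves 1 of the 10 higher. Both SEMA3A and PLXNB1 reached the minimum only through the doxycycline EXOSC10 library, where they were high. From so few untreated reads, a gene at least 2-fold lower could not have reached it.

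The other 8 stayed within 2-fold in that comparison. SEMA3F, a ligand that binds NRP2 preferentially, was at 0.37 (0.07 to 0.69) with 110 and 381 reads in the EXOSC10 libraries. Its EXOSC10 over IgG ratio was 0.95 (0.36 to 1.62) untreated and 0.51 (0.13 to 0.91) with doxycycline, where NRP2 was at -1.57 and -3.55. The remaining secreted or membrane ligands were SEMA4C at 0.59, SEMA3D at 0.47, SEMA4B at 0.20 and SEMA3C at -0.07. Among receptors, PLXNA2 was at 0.20, PLXNB3 at -0.44 and PLXNA3 at -0.45 (-0.72 to -0.18).

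PLXNA3 lay close to PLXNA1 throughout, with 73, 176, 58 and 344 reads in the library order used above and -0.71 (-1.24 to -0.20) for doxycycline over untreated with IgG. In EXOSC10 over IgG with doxycycline, SEMA3A (1.39) and SEMA4C (1.20) were at least 2-fold higher and 0 of the 10 with enough reads were lower, where 13.3% and 27.0% of all genes tested were. SEMA3A and SEMA4C reached the minimum only through the EXOSC10 library, with few reads in the IgG library. With total counts or non-ribosomal totals all 10 were higher. The rest were below 100 reads in the EXOSC10 pair: SEMA3B, SEMA3E, SEMA3G, SEMA4F, SEMA4G, SEMA5A, SEMA6A, SEMA6C, SEMA7A and PLXNA4 had at most 50.5 reads in any library. SEMA6A and SEMA6C, the class 6 relatives of SEMA6B, had 2 and 7.0 reads in the untreated and 28 and 35.8 in the doxycycline EXOSC10 library. These reads are not scaled. The scaled log2 ratio of doxycycline over untreated was 1.92 for SEMA6A, with a lower 95% limit of 0.40. For SEMA6C it was 0.84 (-0.25 to 2.35), which does not exclude equality. Neither gene had the reads required for a call.

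**Figure D5:**
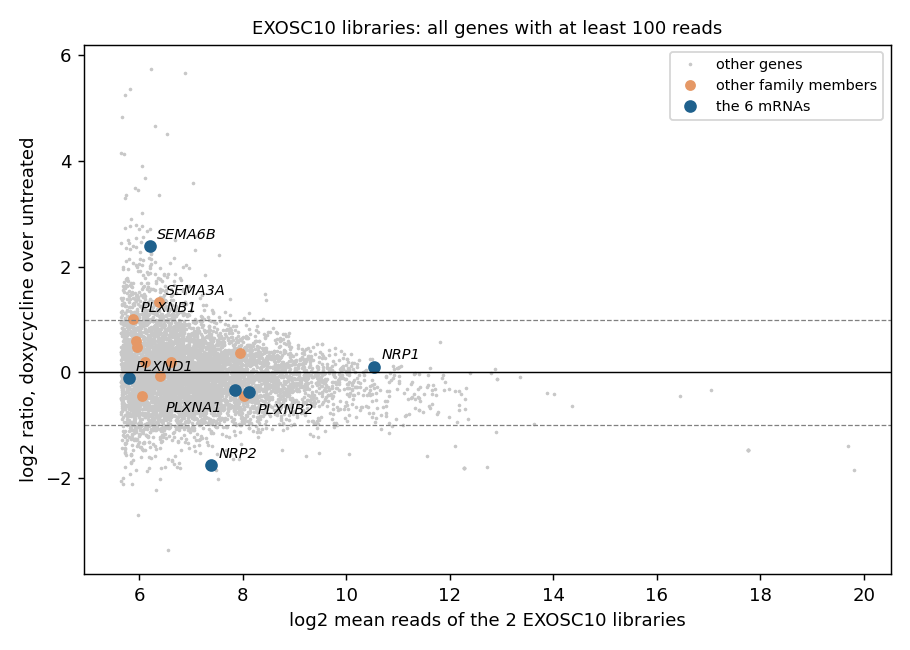
Each point is a gene with at least 100 reads in the EXOSC10 libraries, with the log2 mean of its reads on the x axis and the log2 ratio of doxycycline over untreated on the y axis; dashed lines mark 2-fold. SEMA6B is at 2.39 and NRP2 at -1.75, and among the other family genes SEMA3A and PLXNB1 lie past the upper line.

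Signalling partners of neuropilins and plexins were taken from a list of 54 genes, 42 of which had an entry. In the EXOSC10 doxycycline comparison 31 had enough reads, with 1 at least 2-fold higher and 1 lower and a median of -0.30, where 5.83% and 4.19% of all genes were and their median was -0.06. The higher gene was MICAL2, which encodes an actin-oxidising enzyme, at 2.45 (1.45 to 4.20) from 5.61 and 94.7 reads, in fractions. From so few untreated reads it could reach the minimum only when higher. The lower was FYN, a Src-family kinase that acts in plexin signalling, at -1.22 (-1.65 to -0.83). With IgG, doxycycline over untreated, FYN (1.56) and ROCK1 (1.26) were higher among 21 and 0 were lower, against 2.78% and 3.8% of all genes. ROCK1 encodes a kinase acting on the actin cytoskeleton. From 58.8 and 41.0 untreated IgG reads, neither FYN nor ROCK1 could have reached the minimum at 2-fold lower.

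Of the VEGF ligands that neuropilins bind, VEGFA and VEGFC were on the higher side of the change of enrichment, at 1.18 (0.72 to 1.65) and 1.26 (0.53 to 1.99), with the related kinase gene ROCK2 at 1.08. VEGFB, also tested, was within 2-fold at 0.36 (-0.20 to 0.92). In EXOSC10 over IgG with doxycycline, VEGFA was at 0.38 and VEGFC was still below IgG, at -0.82. FYN (-2.78), the GTPase gene RAP1A (-1.46) and ROCK1 (-1.06) were on the lower side, giving 3 and 3 of 21, against 4.75% and 10.9% of all genes. In EXOSC10 over IgG untreated, 1 of 27 was higher, the receptor kinase gene MST1R (1.5), and 10 were lower, led by the actin-severing CFL1 (-2.19), VEGFC (-2.08) and RHOA (-1.97), against 4.95% and 36.9% of all genes, a share of lower genes near that of the list. With doxycycline, 2 of 31 were higher, LIMK1 (1.27) and MST1R (1.23), and 13 lower, led by FYN (-3.08), LIMK2 (-2.67) and RAP1A (-2.65), against 13.3% and 27.0% of all genes. With total counts these partner counts became 10 higher and 0 lower of 31 in the EXOSC10 doxycycline comparison, 0 and 5 of 21 with IgG, 7 and 3 of 27 in EXOSC10 over IgG untreated, 24 and 0 of 31 with doxycycline and 13 and 1 of 21 in the change of enrichment. FYN, MST1R, RHOA, RAP1A, LIMK2, VEGFA and ROCK1 held fractions of reads, and RAP1A has a close paralogue, RAP1B. With 17.1 and 15.2 reads in the IgG libraries, MST1R could reach the minimum in EXOSC10 over IgG only when higher. LIMK1, with 30.0 reads in the doxycycline IgG library, could not have reached it at 2-fold lower.

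To place the profiles of the 6 mRNAs, the log2 levels of each gene over the 4 libraries were centred on their mean, and likeness was the largest absolute difference over these 4 values among 5127 genes with at least 200 reads. For NRP2 the nearest were JUND, an AP-1 subunit gene (0.13), ZEB2, a transcription factor gene of epithelial-mesenchymal transition (0.14), and SETSIP (0.15). JUND had 1098 and 1520 reads with IgG and 627 and 561 with EXOSC10, untreated and with doxycycline. The nearest to SEMA6B were more distant: PSMD6 (0.33), GATD1 (0.34) and PKIB (0.35). For NRP1 they were ITM2C (0.03), GCC2 (0.03) and THAP4 (0.05).

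PLXNA1 was nearest to TPM2 (0.01), GRAMD1A (0.05) and DIS3 (0.07), the last of which encodes another exosome nuclease. For PLXNB2 the order was RPS3 (0.05), HDLBP (0.06) and ERGIC3 (0.06), and for PLXND1 it was GAPDH (0.02), NBL1 (0.03) and CHTF18 (0.05). With only 4 libraries such likeness is a description.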

How the data were processed

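RNA recovered with EXOSC10 antibody or IgG was sequenced in 4 libraries. The authors deposited CPM values, read as such because the columns share 1 sum once 0.0001, present in each entry, is removed. Per the submitters' processing notes, STAR, Partek and hg38 were used; how reads were counted is not given in the sources used here. That constant was subtracted and the entries of a symbol were summed; every entry reached about 10 reads or more in some library. Reads were estimated as CPM over the step of 1 read (0.269, 0.236, 0.132 and 0.181 CPM in the untreated IgG, untreated EXOSC10, doxycycline IgG and doxycycline EXOSC10 libraries). Between 67.4% and 73.9% of genes were within 0.05 of whole reads, so no count model was fitted to test differences. The intervals treat estimated reads as counts, fractions included. Clopper-Pearson intervals of a ratio leave out the 0.2 added to each level. TMM trimmed 30% of ratios and 5% of levels at each end, giving factors of 0.702, 1.24, 0.451 and 2.55 in that order. The intervals of a change of enrichment and of the NRP2 to NRP1 ratio came from summed reciprocal reads. The scripts were tested on simulated data (Python 3.11.15, SciPy 1.17.1). Coordinates are from the GRCh38.p14 gene table, where all 6 symbols matched, and no other gene with an entry overlaps them. Members and lists were chosen with earlier results of these data known. Named are the members, every other family gene, list partners past 2-fold (up to 4 each way in the main comparison, 3 elsewhere) and the 3 nearest profiles of each member. Alternatives were 4 other scalings, another pseudocount, 3 other minima, a 1.5-fold threshold and the entry of a symbol with the most reads; running them on the other lists was chosen after seeing the data.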

Additional observations from a re-analysis of the deposited data

Results flagged for a closer look

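NRP2 and SEMA6B each had ratios of opposite sign under the same contrast, which is what brought them here. Doxycycline over untreated was -1.75 for NRP2 with EXOSC10 and 0.24 with IgG. Its set of 2 entries was below 0 with both antibodies. EXOSC10 over IgG was -1.07 for SEMA6B in untreated cells and 1.04 with doxycycline. These differences between single libraries were not tested. With total counts NRP2 was at -0.72 and -0.40, the same sign in both. SEMA6B then stood at -0.31 and 3.45, and its untreated value rests on 19 reads.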

How the results depend on the processing

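There is 1 library per group, so no replicate could be left out. No paired analysis was possible because each group has 1 library. With total counts, 2 members were higher and 0 lower in the EXOSC10 doxycycline comparison (NRP2 -0.72), 2 were lower with IgG (NRP2 -0.40), 1 higher and 0 lower in EXOSC10 over IgG untreated (NRP2 -0.75), 4 higher with doxycycline (NRP2 -1.07), and 3 higher and 0 lower in the change of enrichment (NRP2 -0.32). With non-ribosomal totals, 2 were higher and 0 lower in EXOSC10 over IgG untreated (NRP2 -0.52), and 3 higher with doxycycline (NRP2 -2.49). Median-of-ratios factors or a pseudocount of 1 CPM left 0 higher in EXOSC10 over IgG with doxycycline. A minimum of 20 reads, or none, made 1 member higher in the change of enrichment, and no minimum made 2 lower in EXOSC10 over IgG untreated. A minimum of 500 reads left 0 higher and 0 lower in the EXOSC10 doxycycline comparison, 0 lower in EXOSC10 over IgG untreated, 0 higher with doxycycline and 0 lower in the change of enrichment, since fewer genes were tested. With the entry with the most reads in place of the sum, NRP2 was at -2.11 (EXOSC10 doxycycline), 0.73 (IgG), -1.06 and -3.90 (EXOSC10 over IgG, untreated and with doxycycline) and -2.84 (change of enrichment). That entry has 88.0 reads in the EXOSC10 libraries, under the minimum, so NRP2 was no longer counted in the first or the last of these, and the 1 member lower in the first was PLXNB2 (-3.85). Members counted then were 1 lower with IgG (NRP1), 1 higher in EXOSC10 over IgG untreated (PLXNB2), 2 higher with doxycycline (SEMA6B, NRP1), and 1 higher (NRP1) and 0 lower in the change of enrichment; the NRP2 share was 25.9% untreated and 54.9% with doxycycline for IgG, and 22.0% and 2.98% for EXOSC10. The cause of these entry differences was not tested. SEMA6B ranged from 2.0 to 3.44 in the EXOSC10 doxycycline comparison over 7 settings. Over all settings, genes higher and lower ranged from 5 to 3150 and 8 to 1195 in that comparison, 12 to 2113 and 25 to 1804 with IgG, 3 to 2821 and 305 to 2803 in EXOSC10 over IgG untreated, 36 to 5080 and 34 to 2414 with doxycycline, and 13 to 3439 and 11 to 2403 in the change of enrichment. Summing overlapping genes was not run, because none with an entry overlaps a member. Depth limits SEMA6B and PLXND1 most, with 9 to 32 reads outside the doxycycline EXOSC10 library.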
